A study of Mus musculus with 45 samples.

Results

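Fkbp5 and 7 other steroid-responsive genes, Tsc22d3, Per1, Zbtb16, Sgk1, Klf9, Pdk4 and Errfi1, were followed through the uterus of wildtype (WT) and Plag1 knockout (Plag1KO, KO) mice. All 8 were found by symbol among the 24422 genes of the deposited counts. They were brought together with earlier results of these data in view. Fkbp5 was picked because its difference between endometrium and myometrium was not the same in WT and KO mice, that is, it was chosen by its own fitted values in endometrium and myometrium, and the other 7 were added because they are widely known to rise with glucocorticoids or progesterone. The contrasts between layers, and between genotypes within a layer, are therefore given for Fkbp5 as a description with no test.

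The samples came from WT and KO females of the outbred CD-1 stock, 1 to 3 months old. In the KO allele a lacZ cassette takes the place of the whole Plag1 reading frame. All mice of both genotypes had received 5 IU of pregnant mare serum and, 2 days later, 5 IU of hCG, and their uteri were taken on the following day, so there was no group without hormones. From each of 7 WT and 7 KO mice came 3 tissues, namely an intact segment of horn (uterus), the scraped inner lining (endometrium) and the wall remaining after scraping (myometrium). RNA was measured by STRT RNA-seq, which reads the 5′ ends of transcripts and merges copies that share a molecular identifier.

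The 45 libraries held 264095 to 1232992 counts, and repeat libraries of a mouse were summed, which left 42 samples. Levels are in CPM, in which counts are divided by the library total scaled with TMM factors, and a single count was worth 0.413 to 3.27 CPM. Plag1 itself had 2 counts over the 21 WT samples and 5 over the 21 KO samples, at most 1 in a sample, so it could not serve as a check of genotype. The tissue labels were checked with the summed CPM of 4 epithelial and 4 smooth muscle marker genes. Epithelial markers were 652 to 2260 in the endometria and 54.7 to 605 in the myometria. Smooth muscle markers were 8507 to 25385 in the myometria and 199 to 8120 in the endometria, with the endometria of KO mouse 13 (8120) and WT mouse 3 (7155) far above the KO and WT medians of 486 and 1165. The endometrium of WT mouse 8 carried 5051 CPM of the oviduct marker against a WT median of 73.7. In these bulk samples, fewer cells of a type and less RNA per cell cannot be told apart.

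Steroid hormones act through nuclear receptors that rest in a complex with heat shock proteins and large immunophilins until a hormone binds. The glucocorticoid receptor (Nr3c1) and the progesterone receptor (Pgr) recognise nearly the same DNA palindrome, which is why many genes answer to either hormone. Fkbp5 encodes the immunophilin FKBP51, which lowers the receptor's affinity for hormone, and since the activated receptor induces Fkbp5 it closes a short negative feedback loop. In the uterus progesterone prepares the stroma for decidualisation and keeps the muscle quiet, and Zbtb16, Klf9 and Errfi1 are all known from that response. Tsc22d3 encodes the anti-inflammatory protein GILZ, Per1 a repressor of the circadian clock, Sgk1 a kinase that raises sodium transport, and Pdk4 a kinase that turns off pyruvate dehydrogenase.

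Promoters of 7 of the 8 genes, from 250 bases before to 50 bases after a transcript start, were matched by symbol in RefSeq sequences of GRCm38.p6, with 16 entries in all. The 3 shown here were taken because they carry the palindrome itself or an E-box, the element through which clock proteins bind: the single Fkbp5 entry (chr17:28486100-28486399, minus strand), the upstream Per1 entry (chr11:69098699-69098998, plus strand) and the Sgk1 entry with the palindrome (chr10:21993640-21993939, plus strand). Each reads 5′ to 3′ along its gene, with capitals marking the motif matches.
Fkbp5: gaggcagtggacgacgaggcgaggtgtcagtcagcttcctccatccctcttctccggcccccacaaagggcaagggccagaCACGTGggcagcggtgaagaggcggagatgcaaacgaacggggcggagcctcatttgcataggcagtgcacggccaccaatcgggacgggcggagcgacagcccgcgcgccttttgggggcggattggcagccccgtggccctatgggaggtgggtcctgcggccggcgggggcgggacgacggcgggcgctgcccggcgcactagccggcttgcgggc
Per1: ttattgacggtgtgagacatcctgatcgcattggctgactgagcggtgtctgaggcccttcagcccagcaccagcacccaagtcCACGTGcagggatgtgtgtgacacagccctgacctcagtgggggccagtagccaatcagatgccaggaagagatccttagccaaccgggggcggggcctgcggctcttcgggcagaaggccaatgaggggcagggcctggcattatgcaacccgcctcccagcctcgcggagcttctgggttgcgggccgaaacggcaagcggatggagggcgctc
Sgk1: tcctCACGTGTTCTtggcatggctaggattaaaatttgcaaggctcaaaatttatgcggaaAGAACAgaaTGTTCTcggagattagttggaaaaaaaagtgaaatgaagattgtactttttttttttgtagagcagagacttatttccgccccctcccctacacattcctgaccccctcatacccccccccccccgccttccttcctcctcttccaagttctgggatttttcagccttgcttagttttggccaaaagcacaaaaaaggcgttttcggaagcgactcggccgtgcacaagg
The palindrome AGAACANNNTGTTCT, which reads the same on both strands, was found in 1 of the 16 entries, this Sgk1 entry, from 189 to 175 bases before the start, and in 0.00913% of 32851 promoters. Its single arm AGAACA, searched on both strands, is in 19.0% of promoters and in 4 of the 16 entries, 3 of Sgk1 and 1 of Tsc22d3. The E-box CACGTG is in 7.15% of promoters and stood 169 bases before the start of Fkbp5, 166 bases before that of Per1 and 246 bases before that of Sgk1, where it overlaps a separate single arm and not the palindrome. The cAMP response element TGACGTCA, found in 1.79% of promoters, stood 51 bases before a start of Errfi1. These matches describe the letters in the windows.

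On NCBIM37, the build that the counts used under its name mm9, Fkbp5 lies on chromosome 17 from 28536040 to 28654469 on the minus strand and has a 7SK copy within it on the opposite strand. Zbtb16 spans 48462416 to 48644050 on the minus strand of chromosome 9 and Klf9 spans 23215716 to 23241401 on the plus strand of chromosome 19, with Mir1192 inside it on the same strand. Errfi1, on the plus strand of chromosome 4 from 150228028 to 150243001, overlaps 1700045H11Rik on the minus strand. The sources used here do not say whether counting used strand, so reads of Fkbp5 and Errfi1 cannot be separated from those of their opposite-strand neighbours. Tsc22d3, Per1, Sgk1 and Pdk4 overlap no other annotated gene there.

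Fkbp5 was a low gene in these libraries, with 359 counts over the 42 samples and 0 counts in 6 of them. In the endometrium of WT mice its lowest, median and highest levels were 0, 1.62 and 5.11 CPM, with at most 4 counts in a sample. In the endometrium of KO mice they were 0, 10.9 and 27.7 CPM. The myometrium showed the opposite order, at 5.91, 19.7 and 44.8 CPM in WT mice and 1.95, 9.91 and 14.0 CPM in KO mice. In whole uterus the values were 4.25, 8.10 and 22.7 CPM in WT mice and 0, 2.97 and 35.3 CPM in KO mice. By mean, the order ran from WT myometrium (22.7 ± 14.2 CPM, SD, n = 7) through WT uterus (11.3 ± 7.76), KO endometrium (10.4 ± 8.90), KO myometrium (9.78 ± 4.38) and KO uterus (8.31 ± 12.7) to WT endometrium (2.04 ± 1.92). The 4 groups in the middle of this order differed from each other by less than 1 SD.

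These Fkbp5 values were what chose the group, so the fitted contrasts are only described. The log2 fold change of KO against WT was 2.10 ± 0.65 (SE) in endometrium and -1.25 ± 0.41 in myometrium. Endometrium against myometrium stood at -3.22 ± 0.53 in WT mice and 0.12 ± 0.51 in KO mice, a difference of 3.34 ± 0.77. Endometrium was the lower layer in all 7 WT mice and in 5 of 7 KO mice. Without the endometria of WT mouse 3 and KO mouse 13 the difference was 3.42 ± 0.84. By library code, rows A to C held 5 WT and 3 KO mice (numbers up to 8), and the later numbers, 2 WT and 4 KO mice, had codes in rows D to F. The KO against WT value in endometrium was 0.39 ± 0.94 within rows A to C and 3.07 ± 0.80 within rows D to F. In myometrium it was -1.09 ± 0.63 and -1.59 ± 0.52. The part of the rows in the endometrium value was not tested.

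**Figure D1:**
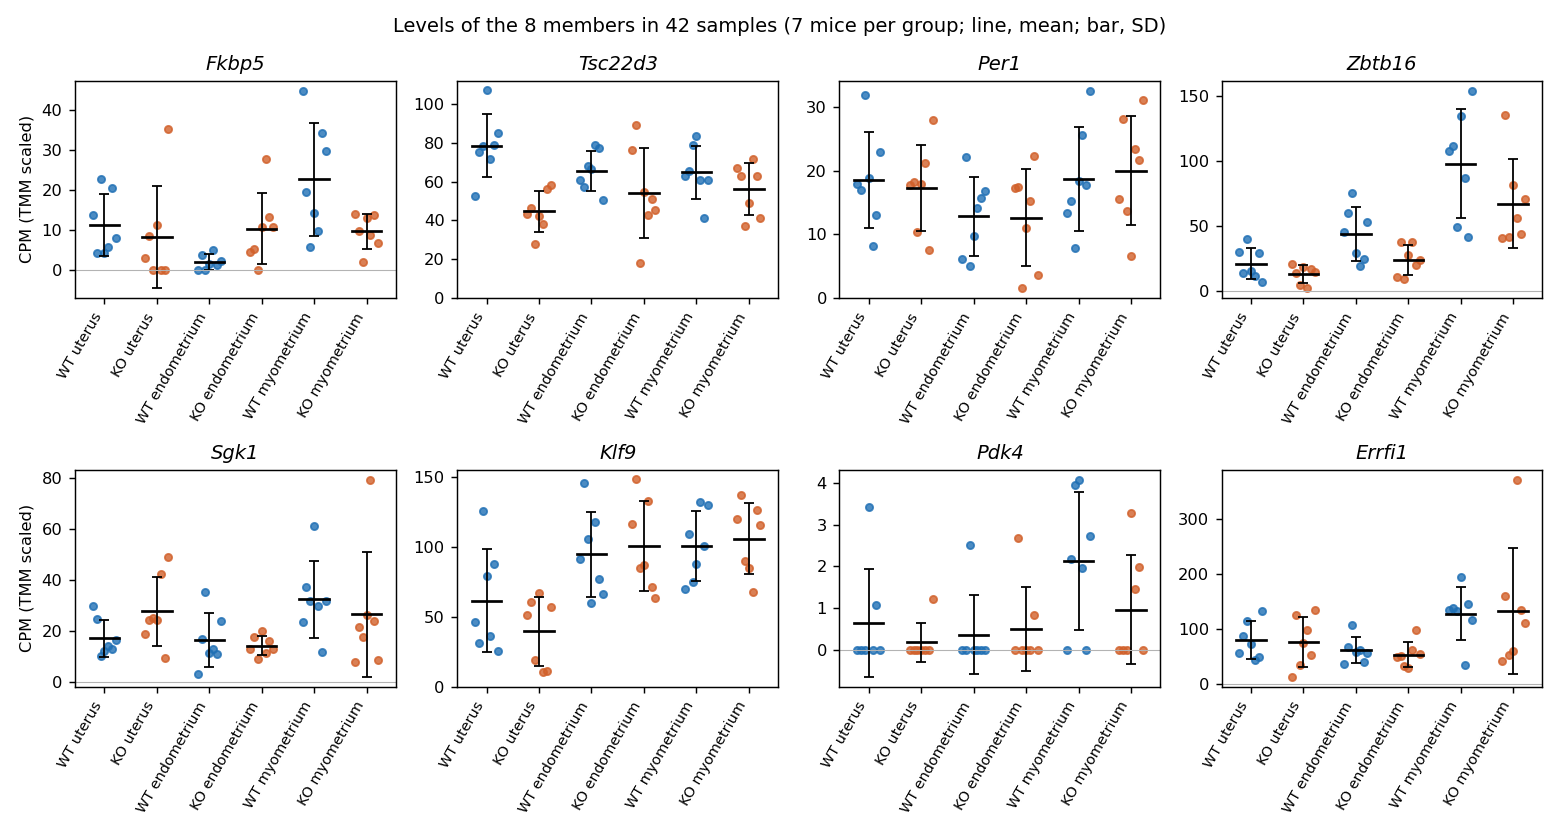
CPM of each gene (TMM scaled, linear axes) in 6 groups of 7 mice, WT in blue and KO in orange, with lines for means and bars for SD. Fkbp5 has its lowest mean in WT endometrium (2.04) and its highest in WT myometrium (22.7), whereas Zbtb16 and Klf9 have their lowest means in whole uterus.

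The first question was whether KO mice differed from WT mice in these genes within a tissue. None of the 8 genes passed an adjusted p of 0.05 in any tissue where it was tested (edgeR quasi-likelihood test with Benjamini-Hochberg adjustment over all genes). In whole uterus, the comparison that the choice of Fkbp5 did not use, 7 of the 8 genes passed the filter on low counts and 0 were called, with 1 at an unadjusted p under 0.05 and 0 called by DESeq2. The background was the same, since 0% of 12959 genes were called in uterus, 0% of 13004 in endometrium and 0% of 12991 in myometrium. At an unadjusted p under 0.05 there were 731, 676 and 548 genes, and DESeq2 called 7, 1 and 0. In endometrium 0 of 6 and in myometrium 0 of 7 members besides Fkbp5 were called, with 1 and 0 at an unadjusted p under 0.05 and 0 in both by DESeq2.

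Tsc22d3 in uterus had the lowest p of these comparisons. Its lowest, median and highest levels in uterus were 52.8, 78.3 and 108 CPM in WT mice and 27.8, 43.5 and 58.4 CPM in KO mice. The values of 5 KO mice lay below every WT value, and those of mice 13 and 14 lay above that of WT mouse 1 only. The log2 fold change was -0.82 ± 0.22, with an unadjusted p of 0.00123 and an adjusted p of 0.570 by edgeR, and by DESeq2 an adjusted p of 0.102. Over the 24 alternatives that gave one, the adjusted p ranged from 0.102 to 1.000. It was -0.96 ± 0.32 within rows A to C and -0.78 ± 0.43 within rows D to F. In endometrium and myometrium the log2 fold changes of Tsc22d3 were smaller, at -0.27 ± 0.28 and -0.20 ± 0.23.

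Zbtb16, a zinc finger repressor also called PLZF, had lower means in KO mice in all 3 tissues, and none of them passed. Its medians were 15.4 and 14.6 CPM in the uteri of WT and KO mice, 45.5 and 23.6 CPM in the endometria, and 108 and 55.7 CPM in the myometria. The fitted log2 fold changes were -0.67 ± 0.42 in uterus, -0.87 ± 0.36 in endometrium (unadjusted p = 0.0243, adjusted p = 0.908 by edgeR) and -0.55 ± 0.29 in myometrium. WT and KO values overlapped in each tissue. Both sets of library rows gave negative values in every tissue, from -1.25 to -0.42 within rows A to C and from -0.63 to -0.49 within rows D to F.

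Sgk1 was the gene with a higher mean in the uterus of KO mice, 27.6 ± 13.5 CPM against 17.02 ± 7.23 CPM. Its log2 fold change of 0.69 ± 0.34 did not pass (adjusted p = 0.872, edgeR). KO mice 14 (48.7 CPM) and 11 (42.4 CPM) lay above all WT mice, and KO mouse 13 (9.41 CPM) lay below all of them. Sgk1 in myometrium went opposite ways in the library rows, at -1.21 ± 0.44 within rows A to C and 0.71 ± 0.60 within rows D to F.

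Klf9, a zinc finger transcription factor that works with the progesterone receptor, had means of 61.6 ± 36.9 CPM in WT and 39.6 ± 24.8 CPM in KO uterus (log2 fold change -0.62 ± 0.41, adjusted p = 0.914, edgeR). In the layers KO and WT differed by 0.10 ± 0.26 in endometrium and 0.07 ± 0.21 in myometrium. Per1 stood at -0.10 ± 0.33 in uterus, 0.00 in endometrium and 0.10 ± 0.34 in myometrium. The edgeR SE in endometrium (0.68) is derived from the test statistic and is unreliable so near 0. DESeq2 gave -0.05 ± 0.45 for Per1 there. Errfi1, which encodes an inhibitor of the EGF receptor, stood at -0.07 ± 0.37, -0.16 ± 0.29 and 0.08 ± 0.34. The myometrium of KO mouse 11 held 373 CPM of Errfi1, more than any other sample, and without that mouse the myometrium value was -0.42.

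Pdk4 was near the limit of detection, with 23 counts in all and 0 counts in 28 of 42 samples. Its highest mean was 2.13 ± 1.66 CPM in WT myometrium, and 3 counts in a sample corresponded to 1.24 to 9.81 CPM. It passed the low-count filter in 3 of the 6 planned comparisons and was not called in any of them. At this depth differences could be missed. The floors of 3 counts cover counting error only.

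**Figure D2:**
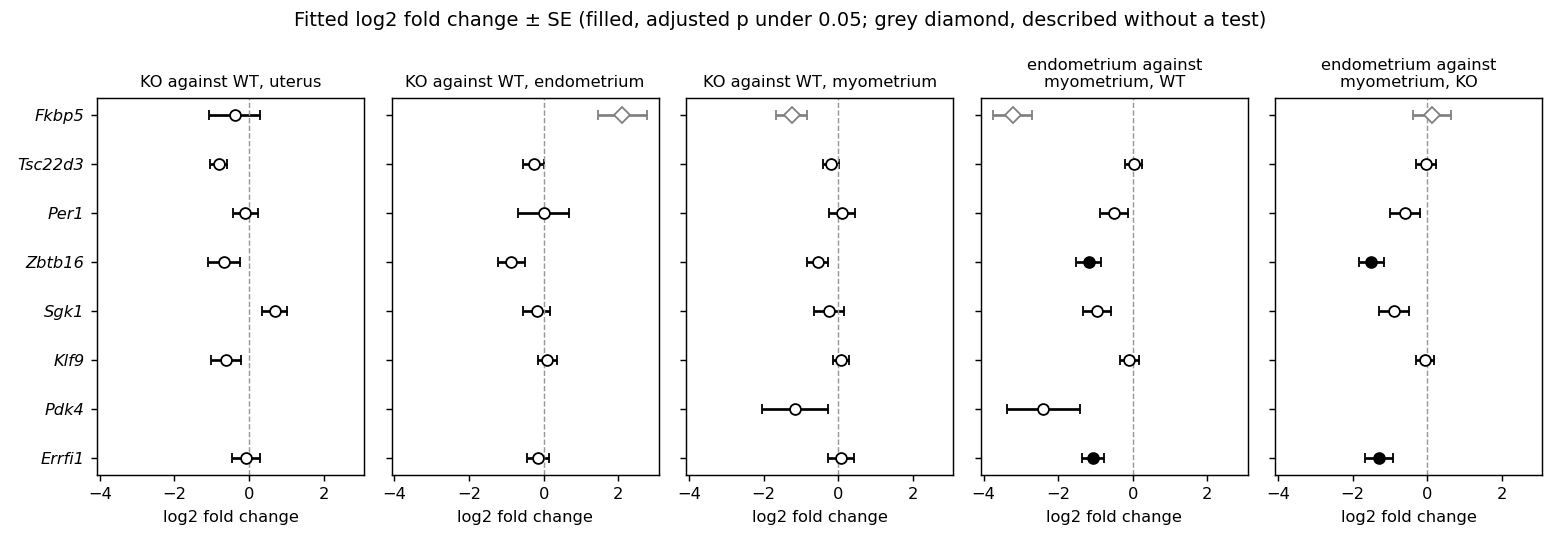
Fitted log2 fold change (horizontal axis) with SE bars for each gene in 5 comparisons, with filled points where the adjusted p was under 0.05 and grey diamonds for the Fkbp5 values given without a test. Zbtb16 and Errfi1 are filled in both layer comparisons, no gene is filled in a comparison of genotypes, and Pdk4 is missing where it failed the low-count filter.

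The second question was how the members divide between endometrium and myometrium. Zbtb16 and Errfi1 were lower in endometrium in both genotypes, and the other genes tested did not pass. In WT mice 2 of the 7 genes tested were called, both lower, against 13.2% of 13227 genes. In KO mice 2 of 6 were called, both lower, against 19.3% of 12969 genes. The median log2 fold change of the genes tested was -0.96 in WT and -0.74 in KO mice, beside 0.01 and 0.08 over all genes. DESeq2 also called 2 in each genotype. In the same comparison the smooth muscle markers (4 of 4 called in each genotype, medians of -2.96 in WT and -3.70 in KO mice) and the stroma markers (4 of 5, medians of -2.35 and -2.91) were lower in endometrium, and the epithelial markers (4 of 4) higher. Their part in the Zbtb16 and Errfi1 values was not tested.

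Zbtb16 in WT mice had its lowest, median and highest levels at 19.2, 45.5 and 75.4 CPM in endometrium and at 41.5, 108 and 154 CPM in myometrium. In KO mice they were 9.10, 23.6 and 37.4 CPM and 40.5, 55.7 and 135 CPM. Endometrium was the lower layer in 6 of 7 WT mice, all but mouse 5, and in 7 of 7 KO mice. The log2 fold change was -1.18 ± 0.33 in WT (adjusted p = 0.0141, edgeR) and -1.51 ± 0.34 in KO mice (adjusted p = 0.00238). These fits did not pair the layers of a mouse. With the mouse as a block the adjusted p was 0.000910 in WT and 6.58e-06 in KO mice (edgeR). The WT call was lost without mouse 7, 8 or 12 (adjusted p = 0.0703, 0.0521 and 0.0575, over alternatives from 0.000910 to 0.0703), and the KO call held in all 15 alternatives.

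Errfi1 in endometrium and myometrium had medians of 58.5 and 134 CPM in WT mice and 50.8 and 111 CPM in KO mice. Endometrium was lower in 6 of 7 mice of each genotype. The exceptions were KO mouse 2 and WT mouse 8, whose myometrium at 33.5 CPM was far below the 116 to 196 CPM of the other WT mice. The log2 fold change, without pairing the layers of a mouse, was -1.07 ± 0.30 in WT (adjusted p = 0.0153, edgeR) and -1.29 ± 0.38 in KO mice (adjusted p = 0.0184). These calls were lost without WT mouse 1, 7 or 10 (adjusted p from 0.0674 to 0.0764), in a single fit of all 6 groups for WT mice (0.0631), and without KO mouse 4 or 11 (0.0524 and 0.0868), over alternatives from 0.00391 to 0.118 in WT and 0.000728 to 0.179 in KO mice.

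Scaling to the ERCC spike-ins, a fixed amount of synthetic RNA, raised the median of all genes in endometrium against myometrium by 0.20 in WT and 0.50 in KO mice. Relative to that median Zbtb16 stood at -1.22 and -1.58 and Errfi1 at -1.10 and -1.37. On the unadjusted spike-in scale Zbtb16 was called only in KO mice (adjusted p = 0.0478) and Errfi1 in neither. Leaving out WT mouse 3 or KO mouse 13, whose endometria had the high smooth muscle markers, left 2 genes called in each genotype, with Zbtb16 at -1.26 and -1.58 and Errfi1 at -1.09 and -1.57.

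Sgk1 also had lower means in endometrium, at -0.96 ± 0.38 in WT and -0.89 ± 0.41 in KO mice, but did not pass (adjusted p = 0.0985 and 0.136, edgeR). Without WT mouse 5 the WT value was -1.20 with an adjusted p of 0.0391, over alternatives from 0.0391 to 0.348. Per1 stood at -0.50 ± 0.37 and -0.59 ± 0.40. Tsc22d3 stood at 0.03 ± 0.23 and -0.03 ± 0.28, and Klf9 at -0.09 ± 0.25 and -0.06 ± 0.23. Pdk4 was tested in WT mice only, at -2.39 ± 0.97, and did not pass (unadjusted p = 0.0198, adjusted p = 0.110, edgeR). It had 1 count over the WT endometria and 9 over the WT myometria.

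The main question about Fkbp5 was whether its change of layer difference with genotype is shared. No such change was detected in the other 7 genes. For 6 of them the interaction, the layer difference in KO minus that in WT, lay between -0.32 and 0.08 on the log2 scale, against the described 3.34 of Fkbp5. The values were -0.06 ± 0.35 for Tsc22d3, -0.09 ± 0.55 for Per1, -0.32 ± 0.48 for Zbtb16, 0.08 ± 0.58 for Sgk1, 0.03 ± 0.33 for Klf9 and -0.21 ± 0.51 for Errfi1. Pdk4 stood at 2.02 ± 1.38, a value that rests on few counts and on the prior count of the fit.

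No gene of the 7 passed (adjusted p from 0.993 to 1.00, edgeR), 0 had an unadjusted p under 0.05, and DESeq2 called 0. Over all 14314 genes tested 0% were called, with 658 at an unadjusted p under 0.05 and 0 called by DESeq2, and with the mouse as a block 0.0699% were called, 0 of them among these 7. Pdk4 apart, the SEs ran from 0.33 for Klf9 to 0.58 for Sgk1. After adjustment over all genes a call needs a value several times its SE. Interactions well above these SEs could therefore also be missed with these samples. Without the endometria of WT mouse 3 and KO mouse 13, 0 of the 7 were called and the values ran from -0.42 for Errfi1 to 0.25 for Klf9, Pdk4 apart (1.64 ± 1.59).

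The same values were read within single mice. The layer difference of Fkbp5, on log2 CPM with a prior count, averaged -2.31 ± 1.14 (SD) in the 7 WT mice and -0.14 ± 0.88 in the 7 KO mice. KO mouse 11 was highest at 1.40 and WT mouse 1 lowest at -4.15. A single count was worth 3.03 and 2.51 CPM in the endometria of WT mice 1 and 5, against at most 1.82 CPM in the other endometria. The part of this lower depth was not tested. For Zbtb16 the means were -1.12 ± 0.92 and -1.42 ± 0.47, for Errfi1 -0.97 ± 0.97 and -1.01 ± 0.88, and for Sgk1 -0.97 ± 0.94 and -0.49 ± 1.04. The genotype means of these 3 genes lay within 1 SD of each other.

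**Figure D3:**
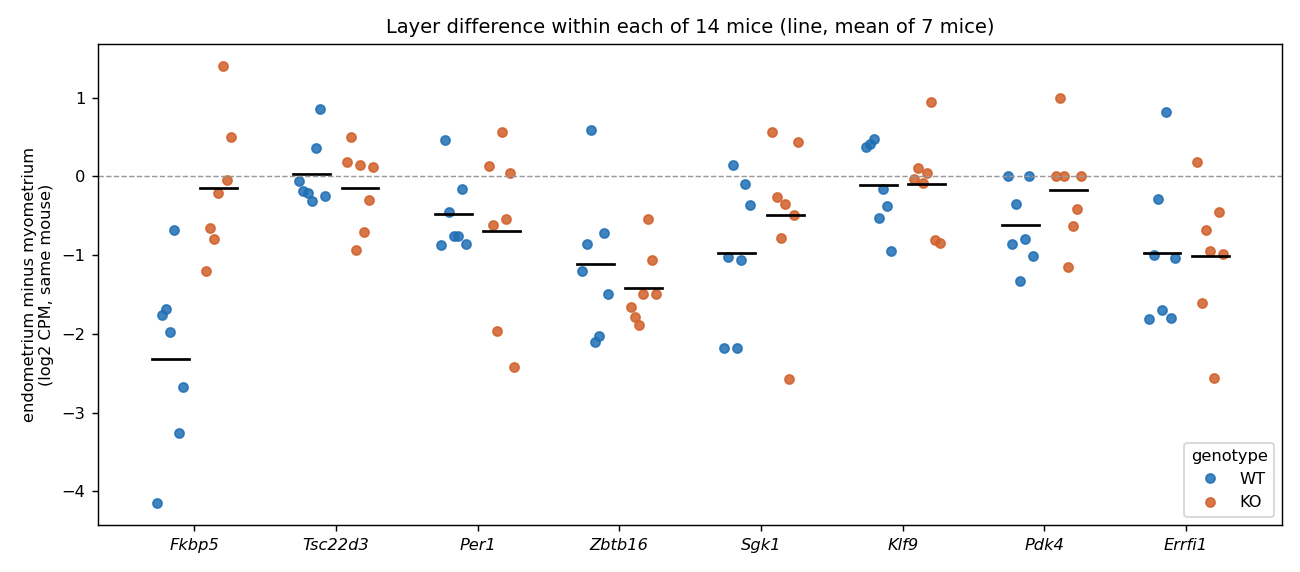
Endometrium minus myometrium in log2 CPM within each of 14 mice, WT in blue and KO in orange, with a line at the mean of 7 mice. Fkbp5 has means of -2.31 in WT and -0.14 in KO mice, while the WT and KO means of Zbtb16 and of Errfi1 lie close together, all near -1 or below.

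Whole uterus holds both layers, yet in TMM-scaled CPM the means of Zbtb16 and Klf9 were lower there than in either layer. This was noticed in the levels, and the 4 comparisons of uterus with a layer were added after their values had been seen. Zbtb16 was lower in uterus than in both layers of the same mouse in 12 of 14 mice and Klf9 in 11 of 14. Over 8181 genes with a mean log2 CPM of at least 3, the median was 4 mice, 6.09% of genes reached 10 mice or more and 1.49% reached 12 or more. For Tsc22d3 it was 5 mice, for Fkbp5, Per1 and Sgk1 3 each, and for Errfi1 and Pdk4 2 each.

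Zbtb16 had a lowest, median and highest level of 6.75, 15.4 and 39.6 CPM in WT uterus and 2.12, 14.6 and 20.8 CPM in KO uterus. Against myometrium the log2 fold change was -2.20 ± 0.34 in WT and -2.33 ± 0.36 in KO mice (adjusted p = 0.000383 and 7.35e-05, edgeR), and uterus was lower in 7 of 7 mice of each genotype. The calls held in all 15 alternatives. Against endometrium it was -1.06 ± 0.37 in WT and -0.85 ± 0.41 in KO mice and did not pass (adjusted p = 0.160 and 0.344). With the mouse as a block the WT value was -1.11 ± 0.32 and passed (adjusted p = 0.0252, over alternatives up to 0.605).

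Klf9 had a lowest, median and highest level of 25.6, 46.5 and 125 CPM in WT uterus and 10.6, 51.4 and 66.7 CPM in KO uterus, where its layer medians were 87.3 CPM in endometrium and 116 CPM in myometrium. In KO mice uterus was lower than both layers in 7 of 7. Uterus against myometrium was -1.40 ± 0.32 in KO mice (adjusted p = 0.00430, edgeR) and -0.69 ± 0.30 in WT mice (adjusted p = 0.127). Uterus against endometrium was -1.35 ± 0.36 in KO mice (adjusted p = 0.0610) and -0.64 ± 0.32 in WT mice (adjusted p = 0.352). With the mouse as a block the WT value against myometrium (-0.84 ± 0.28, adjusted p = 0.0356) and the KO value against endometrium (-1.51 ± 0.30, adjusted p = 0.00192) also passed, over alternatives from 0.0158 to 0.859 and from 0.00192 to 0.205.

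Errfi1 and Sgk1 did not pass in these comparisons. Errfi1 in KO uterus against myometrium was -0.84 ± 0.42 and passed only with the mouse as a block (-0.75 ± 0.24, adjusted p = 0.0209, edgeR, over alternatives up to 0.607). Sgk1 in WT uterus against myometrium was -0.90 ± 0.33 (adjusted p = 0.0797, with alternatives from 0.0395 to 0.719), and it passed with DESeq2, with a filter of 10 CPM and without WT mouse 1. Sgk1 in KO mice had a higher mean in uterus than in endometrium (0.91 ± 0.33, adjusted p = 0.186) and did not pass. Uterus and myometrium differed in 12.0% of 13104 genes in WT and 14.1% of 12970 in KO mice, and 1 of 7 and 2 of 6 members were called. Uterus and endometrium differed in 1.60% of 13091 and 1.25% of 12961 genes, and 0 of 6 members were called in each genotype, with 1 and 3 at an unadjusted p under 0.05 and 0 and 1 called by DESeq2.

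On the spike-in scale the median of all genes in uterus against myometrium rose by 0.71 in WT and 0.43 in KO mice. Relative to it Zbtb16 stood at -2.14 and -2.28 and Klf9 at -0.66 and -1.35. On that scale without adjustment to the median Klf9 stood at 0.095 in WT mice and lost its KO call (-0.93 ± 0.38, adjusted p = 0.0875). Tsc22d3 in WT uterus gained a call (1.05 ± 0.23, adjusted p = 0.000998, and 0.30 relative to the median). In uterus against endometrium the median moved by 0.54 in WT and -0.05 in KO mice. Without adjustment to it Zbtb16 stood at -0.38 and -0.87 and Klf9 at -0.02 and -1.38, without passing. Relative to it Zbtb16 stood at -0.91 and -0.73 and Klf9 at -0.55 and -1.24. Against myometrium, uterus was lower in stroma markers (4 of 5 called in each genotype, medians of -1.61 in WT and -1.60 in KO mice) and smooth muscle markers (3 of 4) and higher in epithelial markers (4 of 4). The summed mesothelial markers had medians of 125 and 134 CPM in WT and KO uterus against 13.0 to 26.1 CPM in the layers, with 3 of 5 called higher than in myometrium in WT and 4 of 5 in KO mice, where the other stood at -1.22 without passing. The part of these markers in the Zbtb16 and Klf9 values was not tested.

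**Figure D4:**
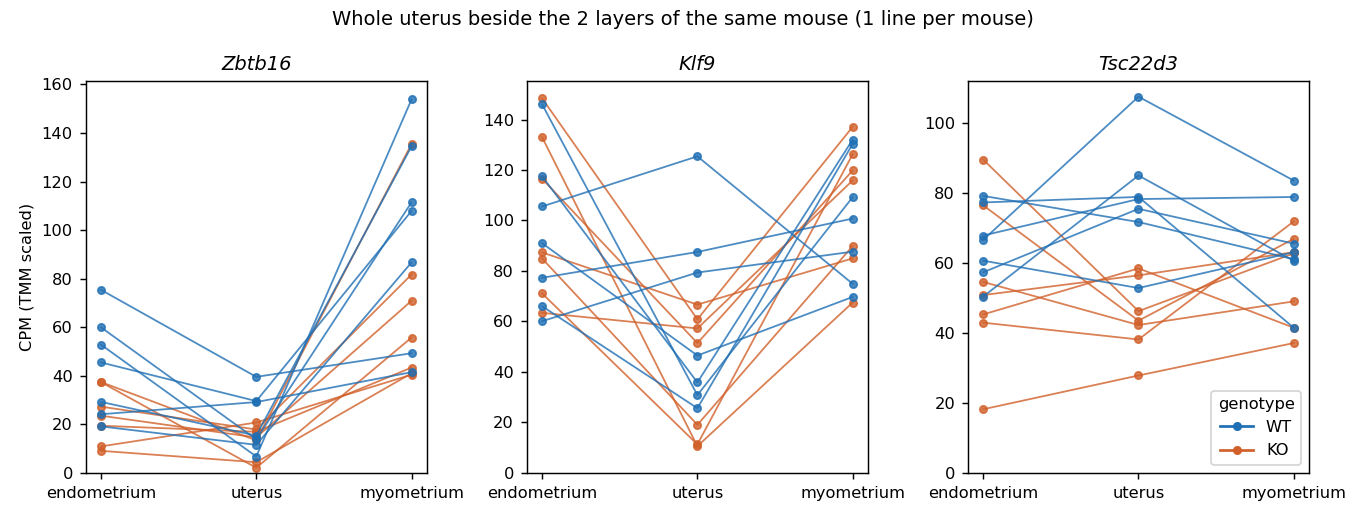
CPM of Zbtb16, Klf9 and Tsc22d3 in endometrium, whole uterus and myometrium, with a line for each of 14 mice, WT in blue and KO in orange. Zbtb16 dips in uterus below both layers in 12 of 14 mice and Klf9 in 11 of 14, and Tsc22d3 in 5 of 14.

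Whether mice with more Fkbp5 also had more of the other genes was asked with deviations from the genotype mean in log2 CPM over 14 mice, by permutation tests, 21 in all (7 genes in 3 tissues). None had an adjusted p under 0.05 for Pearson's r. Correlations of all genes with Fkbp5 within a single tissue are not given here, so the signs and sizes have no background. In uterus all 7 values of r were positive, with a median of 0.37, but without mice 6 and 14, farthest from the median of Fkbp5, Tsc22d3 (-0.28) and Pdk4 (-0.14) were negative and Sgk1 (0.01) and Errfi1 (0.11) were near 0, and within WT mice Tsc22d3 (-0.35), Sgk1 (-0.23) and Pdk4 (-0.24) were negative. In endometrium and myometrium the medians were 0.32 and 0.11. The strongest was Klf9 in uterus, with r = 0.76 (permutation p = 0.00518, adjusted 0.109) and Spearman's rho = 0.85 (permutation p = 0.00118, adjusted 0.0248). Without mice 6 and 14 its r was 0.80.

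The same relation held within genotypes and library rows as a value, with r = 0.62 in WT mice, 0.84 in KO mice, 0.71 in rows A to C and 0.91 in rows D to F. The 3 KO uteri with 0 counts of Fkbp5, of mice 6, 11 and 13, also had the lowest Klf9, at 19.1, 10.6 and 11.3 CPM, against 51.4 to 66.7 CPM in the other 4 KO uteri. A single count was worth 1.47, 2.12 and 1.88 CPM in these 3 libraries and 0.842 to 1.63 CPM in the other 11 uteri, and the part of this lower depth was not tested. For Zbtb16 in uterus r was 0.58 (permutation p = 0.0415, adjusted 0.240) and rho 0.57, and for Per1 0.56 (permutation p = 0.0457, adjusted 0.240) and 0.54. Per1 in endometrium had r = 0.62 (permutation p = 0.0376, adjusted 0.240) and rho 0.48. Without the 2 mice farthest from the median, Per1 in uterus fell to 0.37, Zbtb16 stood at 0.60 and Per1 in endometrium at 0.61.

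**Figure D5:**
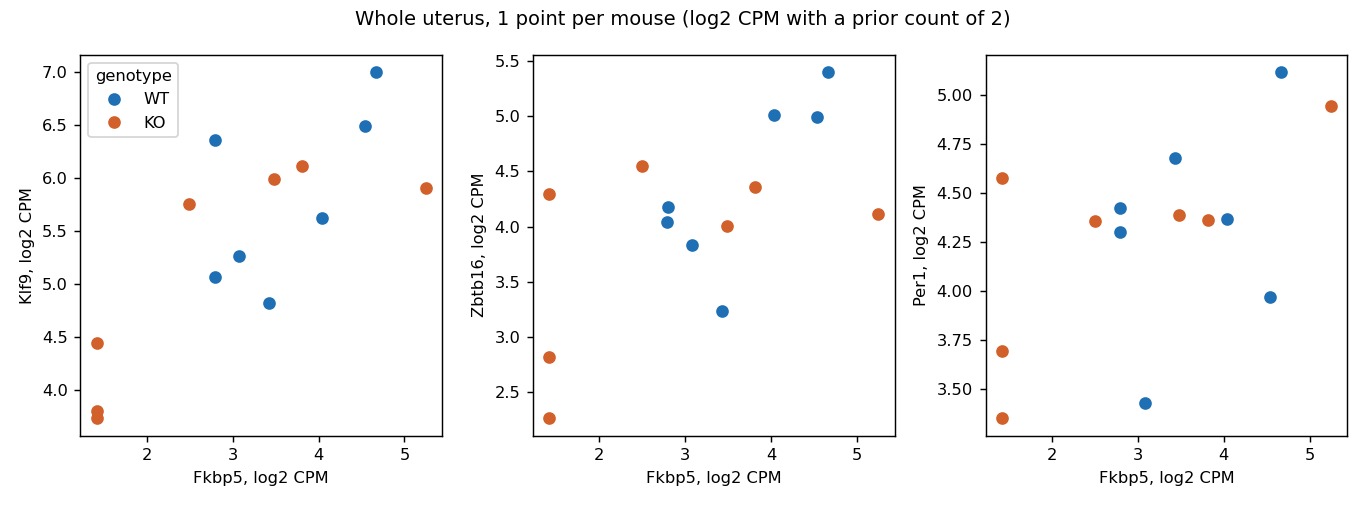
Log2 CPM of Klf9, Zbtb16 and Per1 (vertical axes) against that of Fkbp5 (horizontal axes) in whole uterus, with 1 point per mouse, WT in blue and KO in orange. The 3 KO mice at the left edge have 0 counts of Fkbp5, and the lowest 3 Klf9 values belong to them.

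The level of a gene in one tissue of a mouse said little about its level in another. Over 24 pairs (8 genes and 3 pairs of tissues) the median r was 0.08 and the range -0.44 to 0.60, and 0 had an adjusted p under 0.05 by permutation. Errfi1 between uterus and myometrium was highest, at r = 0.60 (permutation p = 0.0439) and rho = 0.41, and 0.40 without the 2 farthest mice. For Fkbp5 r was -0.09 between uterus and endometrium, 0.11 between uterus and myometrium and 0.26 between endometrium and myometrium.

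Over all 42 samples, the genes whose log2 CPM was most like that of Fkbp5 were Fnbp1 (r = 0.711), Ptrf (0.711), Drap1 (0.702), Timp2 (0.699) and Atp2b4 (0.693), as a description over samples that share mice. Ptrf encodes a coat protein of caveolae, Timp2 an inhibitor of matrix metalloproteinases and Atp2b4 a calcium pump of the plasma membrane. Among 8180 genes the median r was 0.041 and the 95th percentile 0.445. Per1 came next to the latter with 0.45 (rank 387), and Errfi1 (0.43), Zbtb16 (0.43), Klf9 (0.41), Sgk1 (0.22) and Tsc22d3 (0.21) ranked lower.

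The receptors and enzymes that would carry the hormone signal were read from lists chosen with earlier results known. Of 12 steroid receptor and ligand enzyme genes, 10 were tested in each tissue and 0 were called between genotypes. Nr3c1 was lower in the KO endometrium than in KO myometrium (-1.96 ± 0.36, adjusted p = 0.000380, edgeR), with medians of 9.09 and 35.2 CPM. In WT mice it stood at -0.98 ± 0.34 (adjusted p = 0.0564), with medians of 12.1 and 24.9 CPM, and the interaction of -0.97 ± 0.49 did not pass (adjusted p = 0.993). Pgr stood at -0.75 ± 0.37 and -1.09 ± 0.40 without passing (adjusted p = 0.218 and 0.0577).

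Hsd11b1, whose enzyme regenerates active glucocorticoid, was higher in KO endometrium than in KO myometrium (2.69 ± 0.63, adjusted p = 0.00367, edgeR), while in WT mice it stood at 1.23 ± 0.75 (adjusted p = 0.332). Its values ran widely between mice, from 12.7 to 969 CPM in KO endometrium. Hsd11b2, which inactivates glucocorticoid, stood at -0.07 ± 0.34 in WT and 0.35 ± 0.47 in KO mice. H6pd (1.19 ± 0.36) and Akr1c18 (2.44 ± 0.68), an enzyme that inactivates progesterone, were also higher in KO endometrium than in KO myometrium. KO against WT in endometrium they stood at 0.15 ± 0.35 and 1.08 ± 0.74 without passing. Between the layers 5 of 10 genes were called in KO mice, 3 of them higher in endometrium, beside 19.3% of all genes. In WT mice 1 of 10 was called, beside 13.2%, and in the interaction 0 of 11. Nr3c2, the mineralocorticoid receptor gene, had at most 5 counts in a sample.

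Of the same list, 3 of 10 genes in WT and 5 of 10 in KO mice differed between uterus and myometrium, beside 12.0% and 14.1% of all genes. Like Nr3c1, which was lower in uterus in WT (-1.46 ± 0.34, adjusted p = 0.00679, edgeR) and in KO mice (-1.83 ± 0.45, adjusted p = 0.00690), Pgr was lower there (-1.43 ± 0.33, adjusted p = 0.00623, and -1.34 ± 0.41, adjusted p = 0.0267). Hsd11b1 was higher in KO uterus than in KO myometrium (2.50 ± 0.59, adjusted p = 0.00517). Against endometrium 0 of the 10 were called in either genotype.

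Fkbp4, the immunophilin that promotes receptor activity where FKBP51 lowers it, was higher in endometrium in both genotypes. Its medians were 192 CPM in endometrium and 74.3 CPM in myometrium of WT mice, and 183 and 62.2 CPM in KO mice. The log2 fold change was 1.43 ± 0.26 in WT (adjusted p = 0.000382, edgeR) and 2.16 ± 0.32 in KO mice (adjusted p = 3.95e-05). The interaction was 0.74 ± 0.42 (adjusted p = 0.993), and KO against WT was -0.01 ± 0.31, 0.52 ± 0.34 and -0.22 ± 0.23 in uterus, endometrium and myometrium. Of 13 receptor chaperone genes 2 were called between the layers in WT, both higher in endometrium, and 4 in KO mice, 3 of them higher, beside 13.2% and 19.3% of all genes. The other chaperones called higher in endometrium were St13, a partner of HSP70, in both genotypes (1.02 ± 0.25 and 0.97 ± 0.23) and Dnajb1 in KO mice (0.92 ± 0.32). Fkbp1a was lower in endometrium than in myometrium in KO mice (-0.67 ± 0.19).

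Other glucocorticoid-induced genes were called about as often as all genes in KO mice. Of 25 such genes 6 were called in WT, 4 of them higher in endometrium, and 5 in KO mice, all 5 higher, beside 13.2% and 19.3% of all genes. The metallothionein gene Mt2 (1.13 ± 0.28 and 1.40 ± 0.26), Nfkbia, the inhibitor of NF-kB (1.26 ± 0.22 and 1.04 ± 0.25), and Lcn2, an iron-binding protein of epithelia (2.44 ± 0.73 and 2.93 ± 0.57), were higher in endometrium in WT and KO mice. Ddit4 (1.78 ± 0.56) was higher in endometrium than in myometrium in KO mice. Cited2 (-1.24 ± 0.39) and Sult1a1 (-1.17 ± 0.39) were lower in endometrium than in myometrium in WT mice. The list's median of 0.11 in WT and -0.09 in KO mice lay near the 0.01 and 0.08 of all genes.

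Of 20 progesterone-induced uterine genes 19 were tested in WT, with 4 called, all higher in endometrium, and 15 in KO mice, with 5 called, 4 of them higher, beside 13.2% and 19.3% of all genes. Cxcl14, a chemokine (2.28 ± 0.33 in WT and 2.83 ± 0.36 in KO mice), Cyp26a1, which degrades retinoic acid (3.05 ± 0.56 and 2.57 ± 0.74), and Irg1, the itaconate-producing enzyme (3.13 ± 0.71 and 4.36 ± 1.32), were higher in both genotypes. Klf15, a relative of Klf9, was lower in KO endometrium than in KO myometrium (-1.54 ± 0.49). Between genotypes 0 of these genes were called in any tissue, where the medians of those tested were -0.37 in uterus, -0.77 in endometrium and -0.50 in myometrium, beside -0.05, 0.02 and -0.03 over all genes.

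Among 18 clock genes, which include the partners of Per1, 0 of 16 tested differed between layers in WT and 2 of 17 in KO mice, both higher in endometrium, among them Bhlhe40 (2.23 ± 0.54), a repressor in the clock, beside 13.2% and 19.3% of all genes. Of 18 immediate early genes, which respond within minutes to handling as well as to hormones, 17 were tested in WT and 16 in KO mice. Ier2, Ier3 and Junb were the 3 called in WT mice, all higher in endometrium, beside 13.2% of all genes. In KO mice 4 were called, beside 19.3% of all genes. The same 3 were higher (Ier3 by 1.86 ± 0.41 in WT and 2.33 ± 0.34 in KO mice) and Jun was lower (-0.84 ± 0.28). The summed CPM of the 18 genes in uterus was 586 to 1807 in WT mice and 476 to 3303 in KO mice. The highest sum was that of KO mouse 14, whose uterus also had the highest Fkbp5 (35.3 CPM) and Sgk1 (48.7 CPM). The part of the immediate early genes in these values was not tested.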

How the data were processed

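RNA of uterus, endometrium and myometrium from 7 WT and 7 KO mice was sequenced as a single 46-plex STRT library with spike-ins, from 10 ng of RNA per sample. The authors deposited raw counts of tags per gene: reads were demultiplexed, joined by molecular identifier, trimmed and mapped to mm9 with TopHat, then counted over UCSC gene models with Homer according to the methods, whereas the submitters' processing notes name HTSeq. Versions, strand use and the handling of multi-mapping reads are not given in the sources used here. Of 45 libraries, with 264095 to 1232992 counts each, repeat libraries of a mouse were summed to give 42 samples. All library columns could be assigned from their labels. The design text speaks of more mice than the 14 that the labels name.

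Genes with at least 1 CPM in 5 or more samples of a comparison were tested with the quasi-likelihood test of edgeR 4.0.16 (R 4.3.3) with TMM factors and Benjamini-Hochberg adjustment over all genes, calling at an adjusted p under 0.05. The main fits took the tissues of a mouse as unpaired. Each SE of an edgeR value is the absolute log2 fold change divided by the square root of the F statistic. Such an SE is unreliable for values near 0. Log2 CPM used a prior count of 2. Alternatives were DESeq2 1.42.0, other scalings including the spike-ins, a filter of 10 CPM, an adjusted p under 0.1, fits of all 6 groups, a mouse block, and leaving out each mouse. The fits within library rows, the comparisons of uterus with a layer and the fits without 2 endometria were added after seeing the data. Correlations used 100000 permutations. The tests were checked on simulated counts.

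The mouse number joins tissues of the same animal. Deviations from the group means correlated between endometrium and myometrium of a mouse with r from 0.0355 to 0.246 (median 0.135) over 8181 genes, between uterus and endometrium with a median of 0.185, and between uterus and myometrium with a median of 0.0976. No pair of samples of a group agreed within sampling noise (chi-square per degree of freedom from 3.55 to 18.8). The labels name separate mice.

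The members and all gene lists were chosen with earlier results of these data known. Named are all members, Nr3c1, Nr3c2, Pgr, Fkbp4, Hsd11b1, Hsd11b2, the 5 genes most like Fkbp5, and from each list up to 3 genes called higher and 3 called lower, taken by size of change. Some genes that these rules take in are not reported here. Marker lists for stroma, endothelium, leukocytes and adipocytes were read as well: in endometrium against myometrium 4 of 5 (all lower), 0 of 5, 2 of 5 (1 lower) and 1 of 2 (lower) tested genes were called in WT mice, and 4 of 5 (all lower), 0 of 5, 1 of 5 (higher) and 1 of 1 (lower) in KO mice.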

Additional observations from a re-analysis of the deposited data

Results flagged for a closer look

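In 6 of 48 sets of 7 mice (8 genes, 6 groups) a single sample stood far from the others by Dixon's criterion. It was applied to log2 CPM with a prior count, not to the CPM given here. Chance meets it in about 1 in 20 sets of normally distributed values. That rate does not hold for Pdk4, where a single count among zeros meets the criterion by construction. Errfi1 in the myometrium of WT mouse 8 stood at 33.49 CPM, on 17 counts, against 115.8 to 195.7 CPM in the other 6 WT mice. Fkbp5 in the myometrium of KO mouse 6 was 1.954 CPM, a single count, against 6.917 to 14.0 CPM in the other KO mice. Its gap over the range was 0.5684, barely past the critical value of 0.568. The other 4 were Pdk4 values on 1 to 4 counts, in the uterus of WT mouse 7 (3.414 CPM), the uterus of KO mouse 14 (1.218 CPM), the endometrium of WT mouse 5 (2.513 CPM) and the endometrium of KO mouse 4 (2.673 CPM).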

How the results depend on the processing

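In the comparisons of genotypes, 0 members were called in uterus, endometrium, myometrium and the interaction, under each alternative run for them. In endometrium against myometrium, 2 members called in WT mice became 0 with spike-in scaling, 1 in a single fit of all 6 groups, 3 at an adjusted p under 0.1 (with Sgk1) and 0 to 3 when a mouse was left out (0 without WT mouse 7, 1 without WT mouse 1, 8, 10 or 12, 3 without WT mouse 5), and 2 in KO mice became 1 with spike-in scaling and 1 to 2 when a mouse was left out (1 without KO mouse 4 or 11). In uterus against endometrium, 0 became 1 in WT mice with the mouse as a block, and 1 in KO mice with DESeq2, the block, all 6 groups or an adjusted p under 0.1. In uterus against myometrium, 1 in WT mice became 2 with DESeq2, spike-in scaling, a filter of 10 CPM, the block or an adjusted p under 0.1, and 1 to 2 when a mouse was left out (2 without WT mouse 1 or 5), and 2 in KO mice became 1 with spike-in scaling and 3 with the block (with Errfi1). The correlations with Fkbp5 went from 0 called to 1 with Spearman's rho.

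A change of sign was counted where either value exceeded its SE. Spike-in scaling turned endometrium against myometrium in KO mice for Tsc22d3 (0.49) and Klf9 (0.45), uterus against myometrium in WT mice for Per1 (0.73), Klf9 (0.095) and Errfi1 (0.062), and in KO mice for Tsc22d3 (0.089). KO against WT in myometrium turned for Sgk1 within rows D to F (0.71) and for Errfi1 within rows A to C (-0.56) and when mice were left out (-0.42 without KO mouse 11, up to 0.27). The cause was not tested beyond the shift of the median of all genes. Of the other values of single members, 1333 were counted as unchanged. The tested ones among them kept their side of the threshold with no such change of sign. The Fkbp5 values given without a test shifted by less than the spread within groups. Signs of values near 0 could still differ. A further 13 became weaker and 12 stronger, and 2 Fkbp5 values shifted by more than that spread. The mouse block changed no other call than those given beside the results. Fkbp5 and Pdk4 were limited most by depth, with 359 and 23 counts in all.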

Other observations

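KO mouse 6 had the lowest value of its group in 9 of 21 combinations of member and tissue, with Pdk4 left out for its many samples at 0 (42.9%, against 15.6% over all genes), with Fkbp5 in uterus tied at 0, and the highest in 0. WT mouse 5 had the highest value in 7 of 21 (33.3%, against 17.9% over all genes) and the lowest in 5 (23.8%, against 21.5%). The repeat libraries of a single sample gave Fkbp5 counts of 8, 6 and 18 in the endometrium of KO mouse 13 and 22 and 11 in the myometrium of WT mouse 12, or 8.65, 10.7 and 19.2 CPM and 39.4 and 19.1 CPM.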
